A study of Mus musculus with 6 samples.

Results

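The 8 genes described here control the sterol regulatory element-binding proteins (SREBPs) or the uptake of low-density lipoprotein (LDL) in mouse liver: Srebf1, Srebf2, Scap, Insig1, Insig2, Mbtps1, Mbtps2 and Mylip. Every probeset annotated to exactly 1 of these symbols was taken, which gave 14 probesets, and the 8 genes stand among 18193 genes with such a probeset on the array. Liver RNA came from 3 KRAP-/- (KO) mice and their 3 wild-type (WT) littermates, 1 array per mouse (an Affymetrix GeneChip of the mouse genome), so that each pair of littermates gives 1 comparison of genotypes. In KRAP-/- mice a pGKneo cassette replaces exons 11 to 16 of KRAP, a gene now listed as Itprid2. The mice had been backcrossed 6 times to C57BL6/J. Both genotypes were 32 weeks old and ate normal chow, and both share this background. The comparison asks which liver transcripts differ between the genotypes. The study describes KRAP-/- mice as lean, and it gives no weight for the arrayed mice.

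SREBPs are made as precursors in the membrane of the endoplasmic reticulum, where Scap escorts them and the Insig proteins hold the complex back while sterols are plentiful. When sterols run low, the complex moves to the Golgi, where the site-1 and site-2 proteases (Mbtps1 and Mbtps2) cut the precursor and release the part that enters the nucleus. SREBP-2 is known mainly for genes of cholesterol synthesis and SREBP-1c for genes of fatty acid synthesis, and Mylip (also called Idol) is an E3 ubiquitin ligase that marks the LDL receptor for degradation. These steps act on proteins, and the arrays measured RNA alone.

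A signal is given below as a multiple of the median of its own array, a log2 change is KO over WT as limma estimated it, with ± its standard error (SE), and such levels were compared between mice for 1 probeset at a time. The array medians were 20.2 to 23.4 in KO and 19.1 to 22.6 in WT, and the ratio of 3′ to 5′ control probesets for beta-actin was 2.28 to 2.32 and 2.01 to 2.65. The only Itprid2 probeset read 19.99 to 21.6 in KO and 22.3 to 24.5 in WT, and since the sources used here do not place it relative to the deleted exons, it checks nothing about the labels. Xist read 79.1 to 85.6 in KO and 66.3 to 83.4 in WT. The Y-linked genes Eif2s3y, Kdm5d and Uty read at most 0.526, so all 6 livers read as female. The 7 hepatocyte markers, led by Apoa1, summed to 3670 to 4158 in KO and 3797 to 3934 in WT, which fits the label liver. The sums of the 4 cholangiocyte markers measured, led by Sox9, overlapped between genotypes at 3.82 to 5.43 and 5.16 to 6.35, as did those of the 5 stellate cell markers at 149 to 156 and 135 to 162. The stellate sum is mostly Dcn, which was higher in KO in all 3 pairs (log2 change 0.21), while the other 4 had log2 changes of −0.66 (Lrat) to −0.27 (Col1a1), with 2 of them, Lrat and Col3a1, at an unadjusted p under 0.05. The sums of the 4 adipocyte markers measured, led by Adipoq, also overlapped, at 0.458 to 1.497 in KO and 0.926 to 4.83 in WT, with 2 of the 4 below a mean of 0.5. The summed markers of 4 other cell types did not overlap and were lower in KO, as were 12.3% of all single probesets tested. The 6 Kupffer cell markers, led by Cd5l, summed to 131 to 136 against 159 to 188 in WT, and 4 sinusoidal endothelial markers, led by Clec4g, to 70.1 to 70.9 against 74.0 to 83.3. In the Kupffer list all 6 markers had negative log2 changes and Clec4f passed (−0.54, adjusted p = 0.025), whereas in the endothelial list Stab2 and Pecam1 had nearly equal means in both genotypes (log2 changes 0.0064 and 0.013) and none of the 4 reached an unadjusted p under 0.05. The 4 lymphocyte markers measured, led by Cd8a and with 1 below 0.5, summed to 2.03 to 2.98 against 3.64 to 4.05, and the 4 exocrine pancreas markers, led by Cela1 and with 2 below 0.5, to 12.4 to 13.8 against 17.6 to 25.4. The exocrine sum is mostly Cela1, with means of 11.7 in KO and 20.1 in WT, while Prss2 was lower in 2 of the 3 pairs. These shifts go with genotype, and their part in the changes below was not tested. In RNA of whole liver, fewer cells of a type and less RNA per cell cannot be told apart.

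None of the 14 probesets passed the test (limma, adjusted p under 0.05), where 1.41% of the 28531 probesets tested did. The nearest was Srebf2, which was lower in KO in all 3 pairs at both of its probesets. At an unadjusted p under 0.05 stood 7 of the 14, 5 lower and 2 higher, beside 9.30% lower and 5.58% higher over all probesets tested. The 5 that were lower belong to Srebf1, Srebf2 (both probesets), Scap and Insig1, and the 2 that were higher both belong to Insig2. Each of these 5 was lower in all 3 pairs (22.4% of all probesets tested were), and 3 member probesets, 2 of Insig2 and a dim one of Mbtps1, were higher in all 3 pairs (15.3%). The genotypes did not overlap at 4 of the 14, all lower in KO, beside 20.1% of all probesets tested, of which most were lower (12.3%). With each gene at its brightest probeset, the median log2 change of the 8 genes was −0.21, against −0.076 over 13217 genes. The p-values rest on the spread between these 3 pairs of mice, moderated toward an intensity trend over all probesets tested. Part of each variance is thus borrowed from other probesets, and without the trend 0 probesets passed.

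**Figure D1:**
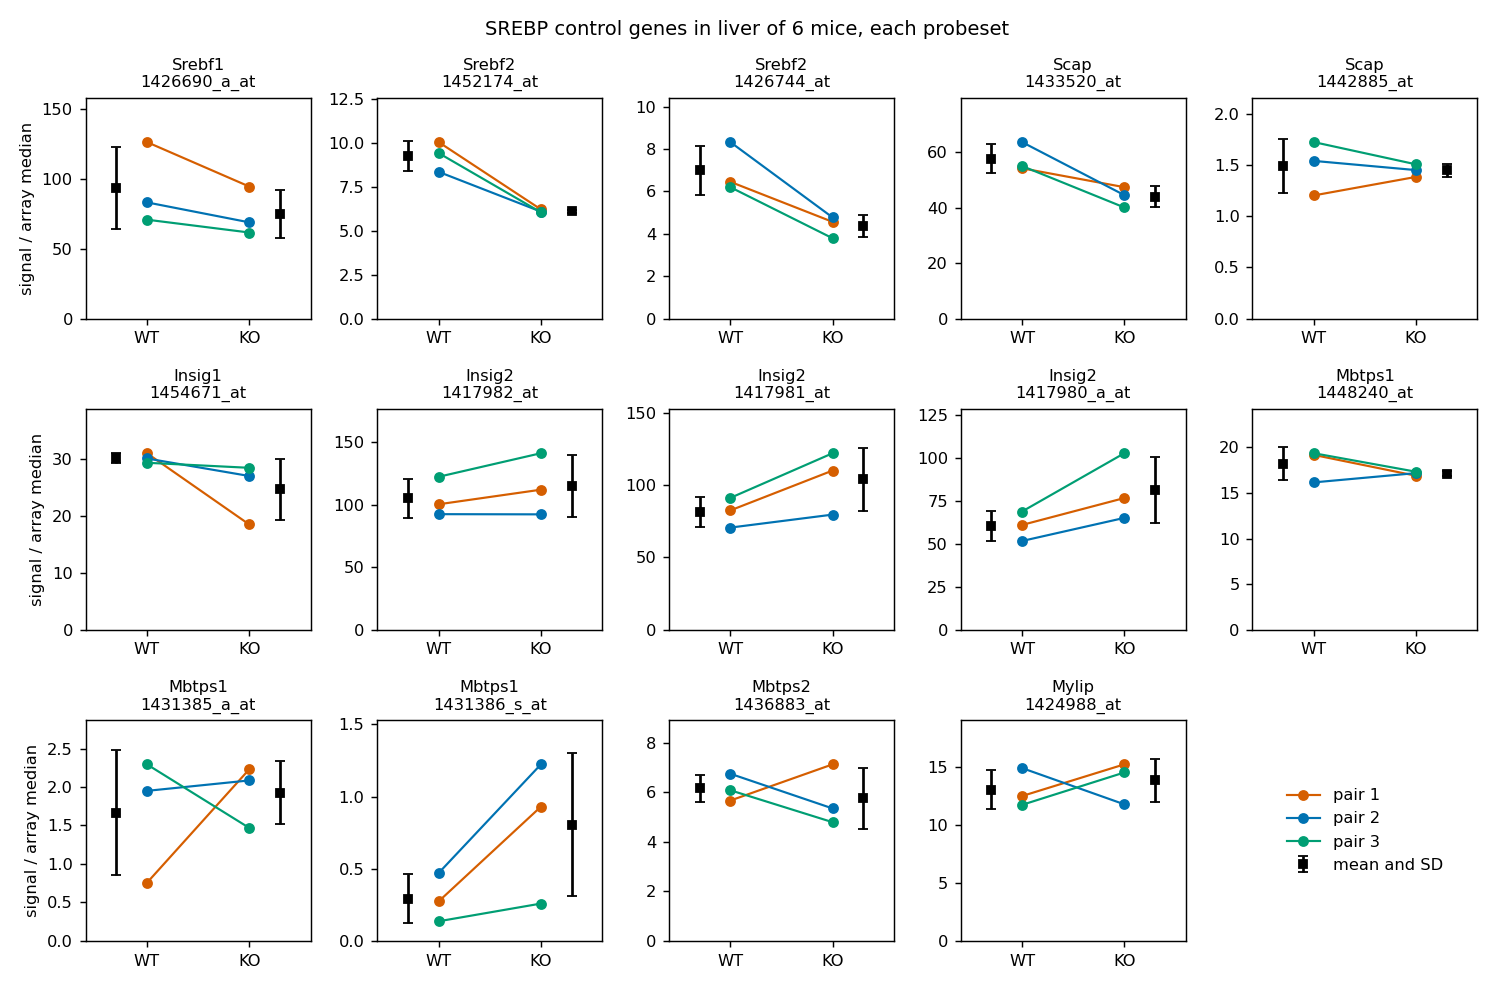
Signal of each of the 14 probesets in the 6 livers, in multiples of the array median on axes that start at 0, with littermates joined by a line of 1 colour and the mean and SD of each genotype (n = 3) in black. All 3 KO points lie below all 3 WT points for both Srebf2 probesets, Scap 1433520_at and Insig1, while the genotypes overlap at the other 10.

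Srebf2 encodes SREBP-2. At its brightest probeset, 1452174_at, the signal was 10.1, 8.36 and 9.43 in WT mice 1 to 3 and 6.22, 6.10 and 6.06 in their KO littermates. The 3 KO livers lay close together and below every WT liver. The means were 6.12 ± 0.0871 in KO and 9.28 ± 0.857 in WT (SD, n = 3 each), a log2 change of −0.60 ± 0.12 (SE, 95% interval −0.88 to −0.31), or 1.51-fold lower. The adjusted p of 0.059 missed the threshold, and it was 0.044 when the littermate pair was left out of the model (0.044 to 0.42 over 12 alternatives). The other probeset, 1426744_at, read 6.45, 8.33 and 6.20 in WT and 4.56, 4.77 and 3.79 in KO, again without overlap. Its log2 change was −0.67 ± 0.14 (SE, adjusted p = 0.058). With the log2 values of both probesets averaged, Srebf2 passed at −0.63 ± 0.11 (SE, adjusted p = 0.043 over 13217 genes), so the call depends on how its probesets are combined while the size does not.

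The promoter of Srebf2 is shown because SREBPs are known to act on their own genes through sterol regulatory elements (SREs), and those of Insig1 and Insig2 because these paralogs, which serve the same step, differed in sign. RefSeq promoter windows on GRCm38.p6, from 250 bases before the transcription start to 50 after it, were matched for 8 of the 8 genes, 13 windows in all. The windows shown are chr15:82147019-82147318 (plus strand) for Srebf2, chr5:28071162-28071461 (plus strand) for Insig1 and chr1:121332540-121332839 (minus strand) for the most upstream of 3 Insig2 windows. They are printed 5′ to 3′ on the strand of the gene, with matches to the motifs below in capitals:
Srebf2: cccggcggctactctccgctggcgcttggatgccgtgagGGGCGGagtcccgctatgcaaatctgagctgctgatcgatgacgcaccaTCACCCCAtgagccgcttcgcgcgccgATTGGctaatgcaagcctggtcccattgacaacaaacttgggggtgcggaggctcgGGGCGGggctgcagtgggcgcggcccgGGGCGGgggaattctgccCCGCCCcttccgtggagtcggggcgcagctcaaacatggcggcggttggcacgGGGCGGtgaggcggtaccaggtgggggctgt
Insig1: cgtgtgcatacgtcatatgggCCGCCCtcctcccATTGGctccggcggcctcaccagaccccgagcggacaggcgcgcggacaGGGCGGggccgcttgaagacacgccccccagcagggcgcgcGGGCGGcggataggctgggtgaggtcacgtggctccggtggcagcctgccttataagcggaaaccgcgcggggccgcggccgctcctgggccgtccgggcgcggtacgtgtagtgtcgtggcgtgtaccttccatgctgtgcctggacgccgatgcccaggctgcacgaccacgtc
Insig2: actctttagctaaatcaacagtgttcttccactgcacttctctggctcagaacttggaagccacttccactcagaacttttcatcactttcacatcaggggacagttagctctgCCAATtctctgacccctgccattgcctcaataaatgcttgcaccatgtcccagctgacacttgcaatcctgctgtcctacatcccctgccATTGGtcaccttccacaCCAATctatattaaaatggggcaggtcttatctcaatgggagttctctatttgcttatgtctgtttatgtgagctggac
The motifs were searched on both strands. The SRE core TCACNCCAC was found in 0 of the 13 windows and stands in 1.24% of all 32851 windows, so the full SRE, which holds this core, was found in none either (0.234%). A shortened form, TCACNCCA, which is part of the others and was added after the windows had been seen, occurs once, in Srebf2 with its first base at −162 from the start (TCACCCCA; 4.36% of all windows). The E-box form TCACNTGA occurs once, in the third Insig2 window, not printed (4.18%). CCAAT boxes (CCAAT) lie in 6 windows of 5 genes, and GC boxes (GGGCGG) in 10 windows of 7 genes, beside 37.4% and 35.7% of all windows. These are matches of letters, not measured binding, and a missing match says only that the letters are not in the window.

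Srebf1 encodes SREBP-1, of which liver makes mainly the 1c form. Its single probeset, 1426690_a_at, read 126, 83.1 and 70.7 in WT mice 1 to 3 and 94.4, 68.8 and 61.5 in KO. WT mice spread widely, KO mouse 1 lay above WT mice 2 and 3, and the genotypes overlapped, yet each KO liver was below its own littermate, at 0.748, 0.828 and 0.870 of its level. The log2 change was −0.30 ± 0.08 (SE, 95% interval −0.49 to −0.11) and did not pass (adjusted p = 0.14). This small standard error rests on the pairs, since without the pair in the model the adjusted p was 0.54. It was 0.42 with the values as deposited and 0.11 without pair 3, the lowest of the alternatives. The probeset is named for the gene, and the 1a and 1c forms were not told apart.

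Scap encodes the escort protein that senses cholesterol and carries SREBPs to the Golgi. Its bright probeset, 1433520_at, read 54.1, 63.6 and 54.96 in WT and 47.3, 44.5 and 40.0 in KO. All KO livers were lower than all WT livers, with means of 43.9 ± 3.68 and 57.6 ± 5.23 (SD, n = 3 each). The log2 change was −0.39 ± 0.09 (SE, 95% interval −0.60 to −0.18, adjusted p = 0.092). Without pair 1, where the KO liver was at 0.874 of its littermate against 0.700 and 0.728 in the others, it was −0.49 and passed (adjusted p = 0.041, and 0.041 to 0.46 over 12 alternatives). The dim probeset, 1442885_at, read 1.202, 1.54 and 1.72 in WT and 1.38, 1.45 and 1.51 in KO, mixed in direction. Its log2 change of −0.026 had a 95% interval of −0.62 to 0.56, which is wide enough to hold the value of the bright probeset. The mean of both, −0.21, did not pass (adjusted p = 0.46).

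Insig1 and Insig2 encode the anchors that keep Scap in the endoplasmic reticulum, and Insig1 is itself a well-known SREBP target. Insig1 (1454671_at) read 31.1, 30.1 and 29.4 in WT and 18.5, 27.1 and 28.5 in KO. The WT livers were nearly equal, and KO mouse 1 stood well below the other KO mice. The log2 change was −0.32 ± 0.14 (SE, 95% interval −0.62 to −0.0094, adjusted p = 0.32), and it rested on pair 1, without which it was −0.10 (adjusted p = 0.84).

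Insig2 has 3 probesets, all designed from 1 cDNA record and read in the same RNA. They are repeated readings of 1 gene, and whether they read the same transcript forms was not tested. At 1417980_a_at the signal was 60.9, 51.6 and 68.7 in WT and 76.5, 65.0 and 103 in KO. Every KO liver was above its littermate, at 1.26, 1.26 and 1.49 times its level, though KO mouse 2 was below WT mouse 3. The log2 change was 0.41 ± 0.09 (SE, 95% interval 0.22 to 0.61, adjusted p = 0.062), and with quantile normalization it was 0.47 and passed (adjusted p = 0.034). It did not pass under the other 11 of 12 alternatives, with an adjusted p of 0.12 as deposited, 0.27 without the pair in the model, 0.12 without pair 3 and at most 0.44. At 1417981_at the signal was 82.6, 70.7 and 91.2 in WT and 110.1, 79.7 and 122 in KO, with a log2 change of 0.34 ± 0.09 (SE, adjusted p = 0.11). The groups overlapped there too, with KO mouse 2 inside the range of WT. The brightest, 1417982_at, read 100.2, 92.3 and 122 in WT and 112, 92.2 and 141 in KO, where pair 2 showed no difference. Its log2 change of 0.12 ± 0.08 (SE, 95% interval −0.06 to 0.31, adjusted p = 0.53) is the smallest of the 3. The mean over the 3 probesets was 0.29 (adjusted p = 0.16).

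Mbtps1, the site-1 protease that makes the first cut, had 3 probesets of unequal brightness. The brightest, 1448240_at, read 19.2, 16.2 and 19.4 in WT and 16.9, 17.2 and 17.3 in KO. The groups overlapped, and the log2 change was −0.085 ± 0.10 (SE, 95% interval −0.32 to 0.15, adjusted p = 0.76). At 1431385_a_at the signal was 0.754, 1.95 and 2.29 in WT and 2.23, 2.09 and 1.47 in KO. WT mouse 1 read lowest of all, and the log2 change was 0.34 ± 0.38 (SE, adjusted p = 0.73), which turned to −0.27 without pair 1. At 1431386_s_at, a design that can bind related transcripts, the signal was 0.274, 0.470 and 0.136 in WT and 0.930, 1.22 and 0.259 in KO. Most of these readings lie below the array median. The KO livers were at 3.40, 2.60 and 1.90 times their littermates. It was the only member probeset at least 1.5-fold the same way in all 3 pairs, the fold named in the study's methods. Applied here without a floor or a limit on dim probesets, this rule found 2.30% of 45037 probesets higher (1035). The study reported fewer higher in liver, so whether its list holds this probeset is not known here. With a log2 change of 1.36 ± 0.74 (SE, 95% interval −0.30 to 3.02), this probeset did not pass the test (adjusted p = 0.43). Averaging the 3 probesets turned the direction of the gene, to a log2 change of 0.54 ± 0.22 (SE, adjusted p = 0.33).

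Mbtps2, the site-2 protease that makes the second cut within the membrane, was read by 1436883_at, after 1 probeset annotated also to another gene was left out. The signal was 5.67, 6.76 and 6.09 in WT and 7.14, 5.35 and 4.798 in KO. Pair 1 went up and the other pairs went down. The log2 change was −0.12 ± 0.17 (SE, 95% interval −0.49 to 0.26, adjusted p = 0.79), and it was −0.34 without pair 1, −0.0064 without pair 2 and −0.0024 without pair 3.

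Mylip (1424988_at) read 12.5, 14.9 and 11.8 in WT and 15.3, 11.8 and 14.5 in KO. The ranges of the genotypes nearly coincide, with KO higher in pairs 1 and 3 and lower in pair 2. Its log2 change was 0.085 ± 0.14 (SE, 95% interval −0.24 to 0.41, adjusted p = 0.83), and its sign changed when pair 1 or pair 3 was left out (−0.016 and −0.027).

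**Figure D2:**
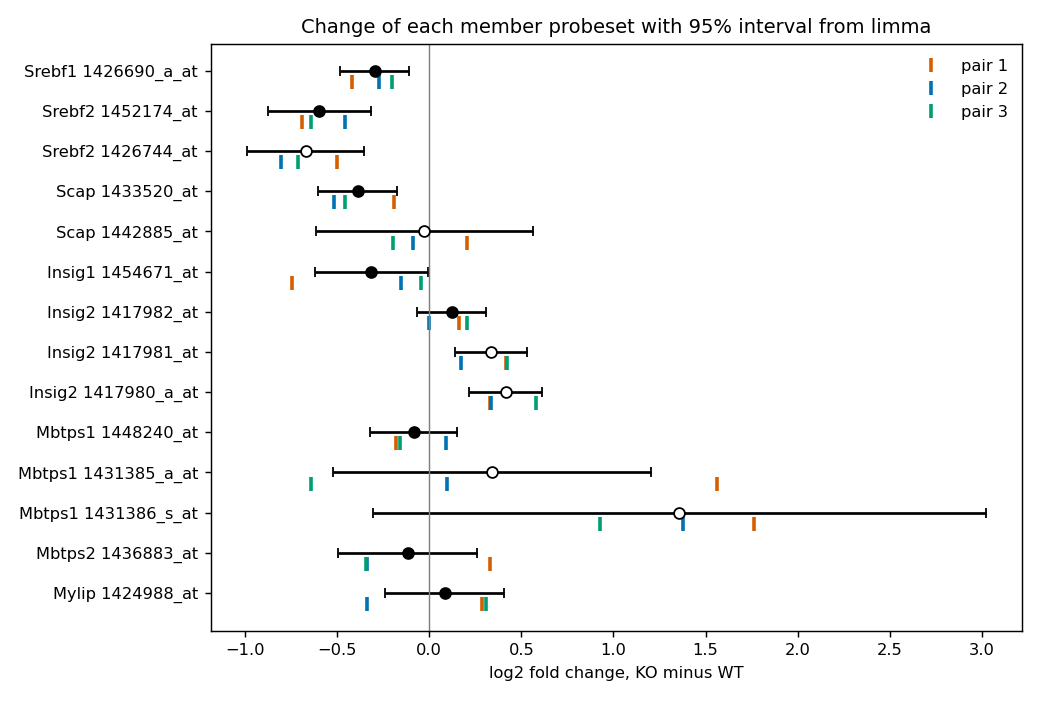
Log2 fold change (KO minus WT) of each of the 14 probesets with its 95% interval from limma, filled circles for the brightest probeset of a gene and open circles for the others, and coloured ticks for the 3 pairs. The intervals of Srebf1, Srebf2, the bright Scap probeset and Insig1 lie below 0 and those of 2 Insig2 probesets above it, while none of the 14 passed after adjustment.

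Whether paralogs changed unequally was asked by subtracting their log2 changes within each pair, for 3 comparisons at the brightest probesets. Srebf2 minus Srebf1 was −0.27, −0.18 and −0.44 in pairs 1 to 3, mean −0.30 ± 0.13 (SD, n = 3). Insig2 minus Insig1 was 0.90, 0.15 and 0.25, mean 0.44 ± 0.41. Both differences kept 1 sign in all 3 pairs, and the Insig difference was carried by pair 1. Each gave p = 0.25 in an exact two-sided sign-flip permutation test, the smallest p that 3 pairs allow, and 0.375 after adjustment over the 3 comparisons. Mbtps2 minus Mbtps1 was 0.51, −0.42 and −0.18, mean −0.031 ± 0.49, with p = 1 in the same exact test. With the probesets of each gene averaged it was −0.65, with p = 0.25, the smallest this exact test allows.

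Genes that work with the members were read at their brightest probeset, in lists chosen with earlier results known. Of 22 genes of SREBP turnover, sterol sensing in the endoplasmic reticulum and transport, 19 were tested, 1 fell and 18 did not pass, where 1.31% of all genes fell and 0.333% rose. The one that fell was Erlin1, a membrane protein of the complex that degrades ubiquitinated proteins of the endoplasmic reticulum, with a log2 change of −0.54 ± 0.11 (SE, adjusted p = 0.046), a call lost with unscaled values, with quantile normalization, without the pair in the model, or without pair 2 or 3. The median of the list was −0.050, and 4 of the 19 were lower and 0 higher at an unadjusted p under 0.05. Over all probesets tested, 9.30% were lower and 5.58% higher at that level. Of the 7 other substrates of the 2 proteases, such as the stress sensors of the Atf6 and Creb3 families, none passed (0 also at an unadjusted p under 0.05) and the median was −0.057. The largest changes there were 0.27 for Creb3l1 (adjusted p = 0.93), a dim reading, and −0.23 for Atf6b (adjusted p = 0.64).

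The target genes behaved otherwise. Of 20 sterol synthesis genes, targets of SREBP-2, 17 were tested, 16 fell and 1 did not pass, with a median log2 change of −1.51. Mvd, which makes isopentenyl diphosphate, fell by 2.33 log2 units (adjusted p = 4.0e-04). Fdps, which makes farnesyl diphosphate, fell by 2.09 (adjusted p = 4.4e-04), and Lss, which closes the sterol rings, by 2.06 (adjusted p = 0.0019). Of 16 fatty acid synthesis genes, targets of SREBP-1c, 9 fell and 7 did not pass, with a median of −0.89. Acacb, which makes the malonyl-CoA that restrains fatty acid oxidation, fell by 1.92 (adjusted p = 0.0029), and for Acss2, a maker of acetyl-CoA, the log2 change was −1.82 (adjusted p = 8.6e-04). Thrsp, a lipogenic protein, fell by 1.496 (adjusted p = 0.0086). Srebf2 at −0.60 and Srebf1 at −0.30 thus had smaller log2 changes than the medians of the lists named for them, a description for which no test was made. Without the intensity trend in limma's variance model, or without the limit on dim probesets, 0 probesets of the whole array passed and these lists had 0 calls, though all 17 sterol genes and 14 of the 16 fatty acid genes stood lower at an unadjusted p under 0.05 with the trend and limit in place.

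Around Mylip, 12 genes were listed for LXR, the oxysterol receptor that is known to drive both Mylip and Srebf1. Of the 10 tested, 1 fell and 9 did not pass, with a median of −0.052. At an unadjusted p under 0.05, 2 were lower and 0 higher, beside 9.30% and 5.58% of all probesets tested. Nr1h3, an LXR gene, had a log2 change of −0.25 that did not pass (adjusted p = 0.30). Pltp, the phospholipid transfer protein, fell by 0.86 log2 units (SE 0.09, adjusted p = 0.0031). Of 11 ubiquitin enzymes that work with or against Mylip and relatives of the LDL receptor, 9 were tested and none passed. The median was 0.13, with 4 higher and 1 lower at an unadjusted p under 0.05. Over all probesets tested 5.58% were higher and 9.30% lower at that level. Nearest to the threshold were Ube2d3, which was lower (−0.35, adjusted p = 0.069), and Scarb1, which was higher (0.37, adjusted p = 0.078). Vldlr, the VLDL receptor and another protein that Mylip marks, had 22.7 ± 2.06 in KO and 15.2 ± 3.37 in WT (SD, n = 3 each), a log2 change of 0.60 (adjusted p = 0.10). It passed with the values as deposited (0.65, adjusted p = 0.044). Usp2, a deubiquitinase reported to oppose Mylip, had a log2 change of 0.38 (adjusted p = 0.28). Of 11 genes that respond to insulin or fasting, 10 were tested, 1 fell and 9 did not pass, with a median of 0.11. In this list 3 were higher and 1 lower at an unadjusted p under 0.05, beside the same 5.58% and 9.30%. The largest rise was in Ppargc1a, with a log2 change of 0.68 that did not pass (adjusted p = 0.060). The one that fell was Mlxipl, the carbohydrate-responsive factor ChREBP, by 0.74 log2 units (adjusted p = 0.0085).

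**Figure D3:**
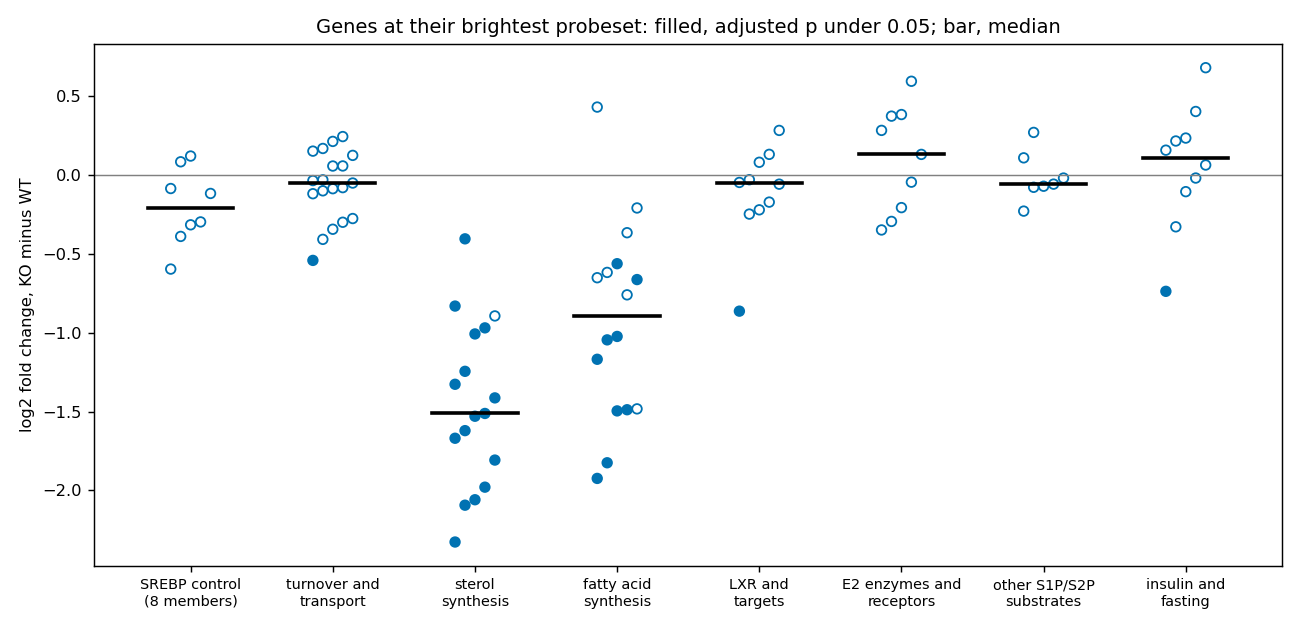
Log2 fold change (KO minus WT) of the 8 members and of each gene in the lists around them, 1 point per gene at its brightest probeset, filled where the adjusted p was under 0.05, with a bar at the median of the list. The 8 members lie between −0.60 and 0.12, and the sterol synthesis genes between −2.33 and −0.40.

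For the 3 members with the smallest p at the brightest probeset, the genes most like them over the 6 arrays were sought among 11037 genes, as a description of arrays that share genotype and scaling. Nearest to Srebf2 were Galm (Pearson r = 0.998), Sdr9c7 (0.994) and Gm16551 (0.993). Of these Sdr9c7 passed the test, with a log2 change of −0.72 (adjusted p = 0.044). Nearest to Scap were Rela (0.998), Pim2 (0.996) and Nubp2 (0.992), and nearest to Srebf1 were Ring1 (0.995), Slbp (0.995) and Abraxas2 (0.991), none of which passed. Such values are reached by some genes among many when only 6 arrays are compared.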

How the data were processed

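The 6 arrays measured liver RNA of 3 KO and 3 WT mice, extracted with Trizol and RNeasy. The authors deposited linear signal intensity values from GCOS (version not given in the sources used here), unlogged and not scaled to a common median. The arrays of brown adipose tissue were not analysed here. Each signal was divided by its array's median, which was taken with the 64 control probesets included. The controls were left out, which left 45037 probesets, and the values were floored at 0.1 and taken as log2. The fit with limma 3.58.1 (R 4.3.3) used the 28531 probesets whose mean reached 0.5. Its model held genotype and pair (a block), and its moderation an intensity trend. Benjamini-Hochberg adjustment was made over all probesets tested, at a threshold of 0.05. Dividing by the median removes any shift shared by all probesets, and the floor and the limit act on dim probesets. The number of arrays limits the precision.

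The pairs come from the study's statement that the mice were littermates. Deviations of littermates from their genotype means correlated at 0.043, 0.0095 and −0.012, and those of mice that are not littermates at −0.052 to 0.043, so the values themselves show no pairing. Gene names came from the platform annotation, with 34945 probesets of 1 symbol, 932 of several and 9160 with none listed. Promoter windows came from RefSeq. The members and lists were chosen with earlier results of these data known. The text names all members with every probeset, up to 3 called genes of a list with the largest change or otherwise 2. It also names the 3 genes most like each of 3 members and the brightest gene of each marker list. Vldlr is described further because its call depends on the scaling. Some other genes, such as Ppargc1a, Nr1h3, Ube2d3 and Scarb1, are named outside this rule. Alternatives changed the scaling (none, or quantile normalization), the floor (0.01, or a pseudocount of 0.25 instead), the limit on dim probesets (1, or none), the model (without the block, or without the trend), the probesets (without those that cross-hybridize, or averaged per gene), the fold of the filter (2) and the pairs (each left out in turn). Python 3.11.15, numpy 2.4.6, pandas 2.3.3, scipy 1.17.1 and matplotlib 3.10.9 made the tables and figures.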

Additional observations from a re-analysis of the deposited data

How the results depend on the processing

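At the brightest probesets, 92 of 96 alternative values kept direction and side of the threshold, as did 64 of 69 at the other probesets. Without the replicate block Srebf2 stayed at −0.60 but passed (adjusted p = 0.044), so that 1 member was called lower, as also with the mean over a gene's probesets, and leaving out pairs gave 0 to 1. Scap at 1433520_at ranged from −0.49 to −0.33 with pairs left out, Scap at 1442885_at from −0.14 to 0.058 (0.024 as deposited), Mbtps1 at 1431385_a_at from −0.27 to 0.83, Mylip from −0.027 to 0.30, and Mbtps2 minus Mbtps1 from −0.30 to 0.17 (−0.65 with the mean over a gene's probesets). Mbtps2 ranged from −0.34 to −0.0024.

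Over the array, 123 probesets were higher and 279 lower. Both counts were 0 without the limit on dim probesets (4551 of 45037 at an unadjusted p under 0.05) and 0 without the intensity trend (3089 of 28531), and with pairs left out they were 123 to 295 and 288 to 469. Under those 2 settings the calls lower in every list were 0. The single call among turnover genes also became 0 as deposited, with quantile normalization, without the block and with the mean over probesets, and was 0 to 1 with pairs left out. LXR genes had 1 to 2 lower with pairs left out. Among the Mylip partners and receptors 1 gene was higher as deposited (Vldlr), with quantile normalization (Scarb1) and with the mean over probesets, and 0 to 1 with pairs left out (Vldlr at 0.84 without pair 3). Among insulin and fasting genes 1 was higher without the block (Ppargc1a, adjusted p = 0.040), and 0 to 2 with pairs left out. The block moved no other count of calls among the members and lists by over 1.5 times. The Mbtps1 probeset that met the 1.5-fold filter did not with a 2-fold limit or a mean of at least 1, both giving 0. The cause of these differences was not tested. With 3 pairs, a member's change had a standard error of 0.08 to 0.17 log2 at bright probesets and up to 0.74 at dim ones. In the model with pairs, changes of several times their standard error, such as −0.30 for Srebf1 and −0.39 for Scap, did not pass. Changes of that size may thus go uncalled here.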
